A study of Mus musculus with 18 samples.

Results

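The 44 genes described here act at entry into mitosis, at the kinetochore, on the spindle and in cytokinesis, and they were taken by symbol from the 23951 genes for which FPKM values (fragments scaled by transcript length and by mapped reads) were available. All 44 were found, and all 44 were among the 12751 genes that reached 1 FPKM in at least 3 of the 18 libraries and were tested. RNA had been sequenced from ear epidermis of 6 mice, and each of the 6 groups holds 3 libraries from 3 mice. Hair follicle stem cells (HF-SCs) were sorted as CD45- CD49f high CD34+ cells and basal keratinocytes (b-KCs) as CD45- CD49f high CD34- cells. Co mice (810, 825 and 828) are labelled as controls with the mT/mG reporter, in which membrane Tomato is exchanged for membrane GFP once Cre has acted. The paper states that its controls also expressed Cre from the keratin 5 promoter and were wild-type or heterozygous for JunB and c-Jun. Which of these each Co mouse was is not given in the paper. DKO* mice (814, 815 and 817) carried floxed JunB and c-Jun alleles, the same reporter and a tamoxifen-dependent Cre driven by the keratin 5 promoter, which is active in basal keratinocytes, and they develop psoriasis-like skin disease after induction. Mice were 8 weeks old, 4 injections of 2 mg tamoxifen were given to mutant and control mice alike, and cells were taken at day 7. In DKO* mice the reporter split each cell type into a mutant GFP fraction and a non-mutant Tom fraction of the same animal, since deletion was mosaic. The labels do not divide Co cells by colour. The 4 comparisons with Co share their Co libraries within a cell type, and the GFP and Tom fractions share their mice, so these comparisons are not independent of each other. The study itself named mitotic cell cycle genes as raised in both HF-SC populations from these libraries, so the direction of the members in HF-SCs is not independent evidence.

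Entry into mitosis is driven by cyclin B bound to Cdk1. Condensins and topoisomerase II then shape the chromosomes, centromere proteins build the kinetochores that hold spindle microtubules, and kinesins and Aurora kinases assemble the spindle. Checkpoint proteins hold back Cdc20 until every kinetochore is attached. After that the anaphase-promoting complex (APC/C), loaded by the ubiquitin-conjugating enzyme Ube2c, destroys cyclin B and securin, separase opens the cohesin rings, and the centralspindlin proteins and anillin place the cleavage furrow. Most of these transcripts are made late in the cell cycle, under promoters that repressor and activator complexes containing B-Myb, FoxM1, NF-Y or the DREAM proteins are known to bind. Bulge HF-SCs of resting follicles are known to divide rarely, whereas b-KCs renew the epidermis steadily.

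The promoters of 37 of the 44 members were found in RefSeq sequence of GRCm38.p6, a later build than the one used for the FPKM values, and 2 of the 37 had 2 entries. Incenp, Cdc25c, Tpx2, Ccna2, Aurkb, Kif20a and Spc24 had no entry. The 250 bases before the annotated start were searched on both strands for TTTGAA and TTTAAA, letters of the cell cycle homology region type, and for CCAAT, the letters NF-Y is known to bind. TTTGAA or TTTAAA was present in 19 of the 37 promoters (51.4%), against 28.1% of the promoters of all 27025 genes and 20.5% of those of 9490 tested genes. CCAAT was present in 28 of the 37 (75.7%), against 37.5% of all and 40.3% of tested genes, and 18 of the 37 (48.6%) held it 2 or more times, against 11.5% and 15.0%. Both kinds of letters occurred together in 17 of the 37 (45.9%), against 10.1% of all and 7.9% of tested genes. A match is a description of the letters, not of a bound site, and their part in any expression difference was not tested. The promoters of 6 members are shown because their genes mark the range of the results below. Ccnb1, Plk1 and Ube2c had large differences in HF-SCs, Espl1 had the smallest called difference there, Pttg1 was the member not called there, and Anln had the largest difference between the HF-SC and b-KC responses. Capitals mark the letters searched on either strand, each sequence is written 5′ to 3′ on the strand of its gene, and it ends at the base before the start.
Ccnb1 (chr13:100786487-100786736, minus strand): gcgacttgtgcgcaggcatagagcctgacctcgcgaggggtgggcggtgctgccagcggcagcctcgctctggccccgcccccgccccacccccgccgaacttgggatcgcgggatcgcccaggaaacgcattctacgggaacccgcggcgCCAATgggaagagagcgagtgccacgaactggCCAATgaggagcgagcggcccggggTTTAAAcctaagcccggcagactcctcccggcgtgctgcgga
Plk1 (chr7:122159185-122159434, plus strand): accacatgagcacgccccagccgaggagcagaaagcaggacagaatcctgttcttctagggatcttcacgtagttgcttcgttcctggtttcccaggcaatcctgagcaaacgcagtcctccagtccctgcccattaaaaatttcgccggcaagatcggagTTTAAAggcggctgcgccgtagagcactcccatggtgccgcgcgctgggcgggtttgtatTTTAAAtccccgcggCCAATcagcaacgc
Ube2c (chr2:164769679-164769928, plus strand): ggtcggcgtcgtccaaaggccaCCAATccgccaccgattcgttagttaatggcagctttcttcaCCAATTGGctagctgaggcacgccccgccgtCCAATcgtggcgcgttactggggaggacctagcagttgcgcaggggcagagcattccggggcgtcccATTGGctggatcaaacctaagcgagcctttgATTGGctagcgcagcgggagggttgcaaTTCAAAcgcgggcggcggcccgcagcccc
Espl1 (chr15:102296043-102296292, plus strand): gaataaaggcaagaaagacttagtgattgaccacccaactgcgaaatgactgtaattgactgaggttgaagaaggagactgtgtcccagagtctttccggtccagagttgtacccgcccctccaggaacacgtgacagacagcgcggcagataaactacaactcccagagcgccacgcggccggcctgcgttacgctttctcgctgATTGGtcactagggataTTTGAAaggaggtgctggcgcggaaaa
Pttg1 (chr11:43425982-43426231, minus strand): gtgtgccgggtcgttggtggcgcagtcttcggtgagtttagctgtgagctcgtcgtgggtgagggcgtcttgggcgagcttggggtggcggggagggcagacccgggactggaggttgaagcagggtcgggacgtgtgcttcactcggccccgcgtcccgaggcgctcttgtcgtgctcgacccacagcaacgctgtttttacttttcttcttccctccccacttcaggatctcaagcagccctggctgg
Anln (chr9:22389207-22389456, minus strand): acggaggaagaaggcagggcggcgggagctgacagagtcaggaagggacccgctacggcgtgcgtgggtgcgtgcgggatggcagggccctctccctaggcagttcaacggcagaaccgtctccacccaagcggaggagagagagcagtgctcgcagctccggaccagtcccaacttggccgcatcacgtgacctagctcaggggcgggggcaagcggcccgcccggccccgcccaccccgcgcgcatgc
Ccnb1 had 2 CCAAT and 1 TTTAAA, Plk1 had 1 CCAAT and 2 TTTAAA, and Espl1 had 1 CCAAT and 1 TTTGAA. Ube2c had 1 TTTGAA, read as TTCAAA on the strand shown, and 6 CCAAT, of which 2 are the same 8 letters read from either strand. None of these letters occurred in the windows of Pttg1 and Anln, which says only that they are absent from these 250 bases. Nor did they occur in those of Mad2l1, Ncaph, Ndc80, Nuf2 and Nusap1, which, like Anln, were called higher in both HF-SC fractions. Birc5, with the largest difference of the members in HF-SC Tom, had 1 TTTAAA and 0 CCAAT.

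The libraries were first checked against their labels, and the depth implied by the steps between low FPKM values was 16440000 to 26280000 reads per library. The reads were not assigned to a strand, and 16 of the 44 members overlap another annotated gene, as Ube2c overlaps Tnnc2 and Kif20a overlaps Cdc23, so reads in those overlaps cannot be told apart. Jun and Junb, the targeted genes, fell in HF-SC GFP against Co, by log2 differences of -4.07 and -2.88, and in b-KC GFP, by -4.30 and -3.69, all 4 with an adjusted p under 0.01 in limma. They were also lower in b-KC Tom (-1.94 and -1.27, both called) and were not called in HF-SC Tom (-1.30 and -0.56). Of 10 bulge markers, 9 were higher in HF-SC Co than in b-KC Co, the sort marker Cd34 by 8.24 on the log2 scale, and the exception was Krt15 at -2.59, not called, whereas 7 of the 10 were lower in each DKO* HF-SC fraction than in Co. Krt15 had the opposite sign there, at 3.005 in GFP and 2.90 in Tom, not called. The summed FPKM of the 10 was 13857 in mouse 810, 14220.5 in 825 and 2651 in 828 of HF-SC Co. It was 3813 to 6943 in the DKO* HF-SC libraries, so that the sum of mouse 828 lay below all of them. The median FPKM of the 10 markers did not show this, at 90.8 to 149 over the HF-SC Co libraries. It was 36.4 to 55.0 in HF-SC GFP, 23.6 to 64.8 in HF-SC Tom and 8.27 to 9.68 in b-KC Co. Without mouse 828, 43 of the 44 members described below were still called in each HF-SC fraction. Of the 5 suprabasal keratinocyte markers tested, 3 were higher than in Co in HF-SC GFP and 2 in HF-SC Tom, and their summed FPKM ranged over 669 to 875 in HF-SC Co, 1679 to 3382 in HF-SC GFP and 1610 to 2064 in HF-SC Tom. In b-KCs, 2 of the 5 suprabasal markers were lower than in Co in each fraction, Lor by log2 differences of -2.48 and -3.41, and their sum was 6706 to 8312 in Co, 4793 to 6748 in GFP and 3824 to 6913 in Tom. Of the bulge markers 1 (GFP) and 5 (Tom) were lower there, and their sum was 3206 to 3362 in b-KC Co, 674 to 1483 in GFP and 409.5 to 1248 in Tom. The summed FPKM of 6 basal keratinocyte markers was 16068 to 17362 in b-KC Co, 6305 to 10369 in b-KC GFP and 5779.8 to 16073 in b-KC Tom. All 6 lay below Co in b-KC GFP, where 1 was called, and 5 of 6 in b-KC Tom, where 0 were called (2 at an unadjusted p under 0.05). Krt14 was lowest in both, at -4.80 and -8.81. In HF-SCs 0 of the 6 were called in either fraction (1 in GFP and 2 in Tom at an unadjusted p under 0.05). Endothelial transcripts differed between HF-SC groups, with a summed FPKM of 16 markers of 64.7 to 108 in Co, 2.62 to 41.0 in GFP and 540 to 1710 in Tom, and no b-KC library exceeded 12.2. The summed FPKM of 12 leukocyte markers was 5.51 to 7.99 in HF-SC Co, 10.9 to 40.2 in HF-SC GFP and 15.4 to 28.3 in HF-SC Tom, and 2.10 to 7.90 over all b-KC libraries. The part of these other transcripts in the results for the members was not tested. In bulk RNA, fewer cells of a type and less RNA per cell cannot be told apart.

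Across the 18 libraries the members were lowest in HF-SC Co and highest in b-KC Tom. The summed FPKM of the 44 genes was 170 to 205 in HF-SC Co, 860 to 892 in b-KC Co, 727 to 1178 (GFP) and 1161 to 1308 (Tom) in the other HF-SC groups, and 1229 to 1913 (GFP) and 2059 to 2260 (Tom) in the other b-KC groups. HF-SC Co lay below every other group, b-KC Tom lay above every other group, and the ranges of b-KC Co and HF-SC GFP overlapped, as did those of HF-SC GFP and HF-SC Tom and those of HF-SC Tom and b-KC GFP. None of the 792 values was listed at 0. The 17 values under 1 FPKM, from 8 members, were all in HF-SC Co. FPKM is scaled by length, but differences between groups still varied with transcript length, as described below. Levels are thus set side by side between genes as a description only. Ccnb1 had the highest mean level of the 44 genes in 5 of the 6 groups. The exception was HF-SC Co, where Pttg1, which encodes securin, the inhibitor of separase, was highest. Cenpf, a large kinetochore protein, and Espl1, which encodes separase, were among the 4 lowest members in each group.

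**Figure D1:**
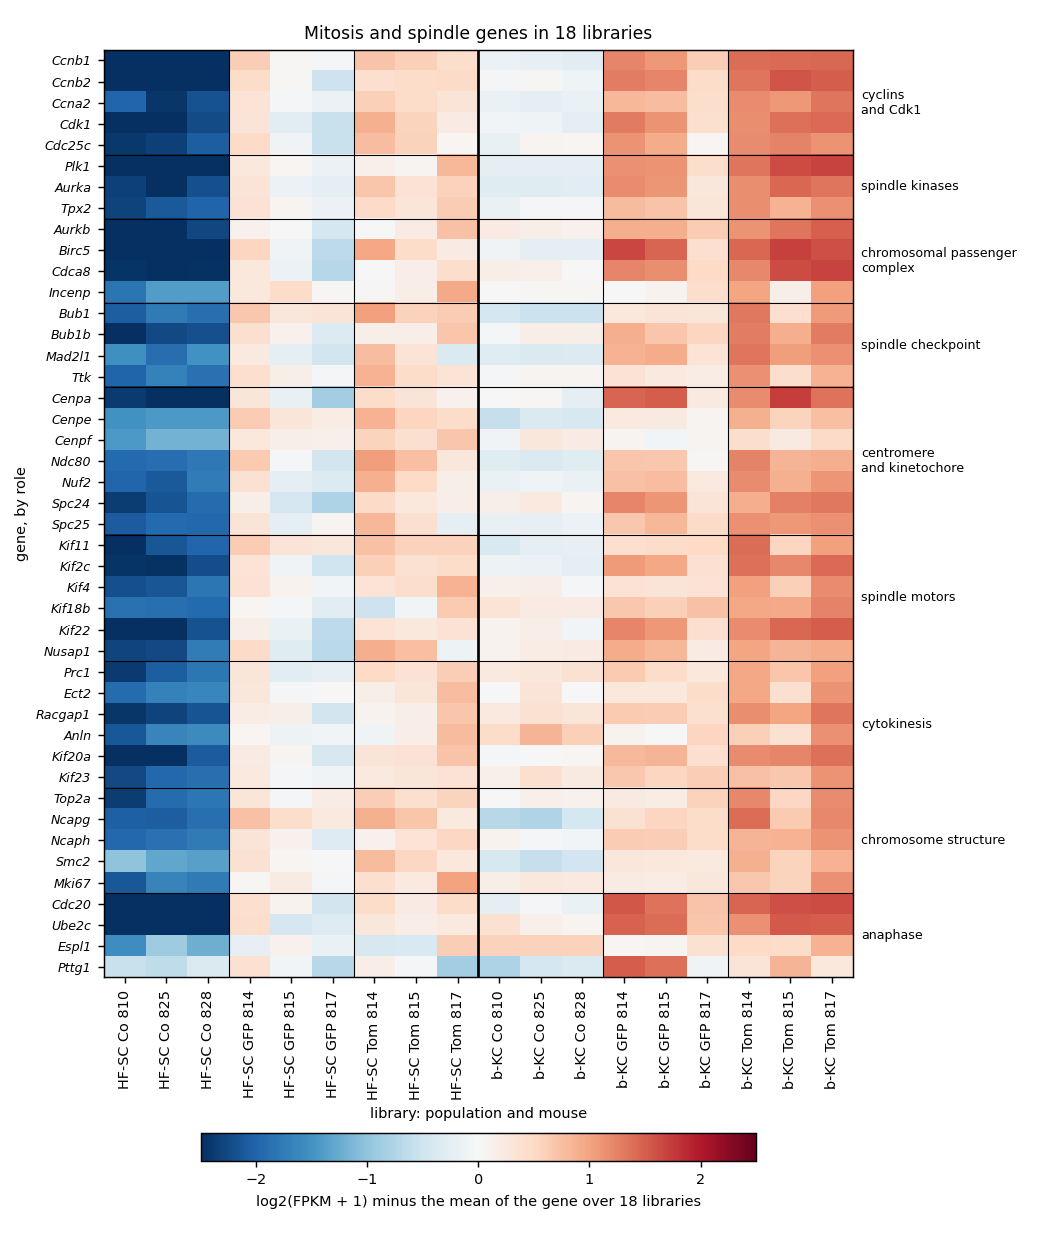
Heat map of the 44 members (rows, by role) in the 18 libraries (columns, by group and mouse), as log2(FPKM + 1) minus the mean of each gene over the libraries. Colours saturate at the ends of the bar. The 3 HF-SC Co libraries are the lowest for 43 members and the 3 b-KC Tom libraries are high for most, while the row of Pttg1 is highest in b-KC GFP of mice 814 and 815.

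In control skin, 43 of the 44 members were lower in HF-SCs than in b-KCs (HF-SC Co against b-KC Co, limma on log2(FPKM + 1), adjusted p under 0.01) and none was higher, where 19.3% of all tested genes were lower and 18.7% higher. The median log2 difference of the members was -2.15, against -0.06 over all tested genes, and the median ratio of mean FPKM was 0.166. For the same 43 members all HF-SC Co libraries lay below all b-KC Co libraries, a pattern that 37.4% of tested genes showed. Ube2c, whose promoter is printed above, had the largest difference. Its levels were 5.76, 3.91 and 6.08 FPKM in HF-SC Co and 58.7, 49.3 and 47.4 FPKM in b-KC Co, a log2 difference of -3.09 (SE 0.232, adjusted p = 3.89e-08). Next came Cdc20, the APC/C activator, at -2.86, Ccnb2, the second mitotic B-type cyclin, at -2.84, and Birc5, which encodes survivin of the chromosomal passenger complex, at -2.83. Smc2, the condensin ATPase, had the smallest called difference, -0.74 (adjusted p = 0.00075). Pttg1 was the exception. Its level was 39.5, 37.6 and 45.3 FPKM in HF-SC Co and 34.2, 43.0 and 45.3 FPKM in b-KC Co, the libraries overlapped, and the log2 difference was 0.01 (95% interval -0.79 to 0.80).

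In HF-SCs of DKO* mice, mitosis and spindle genes rose together in both the mutant and the non-mutant fraction. Against HF-SC Co, 43 of the 44 members were higher in HF-SC GFP, where 13% of all tested genes were higher, and 43 of 44 were higher in HF-SC Tom, where 15.7% were. No member was lower, where 12.3% of tested genes were lower in GFP and 13.9% in Tom. Differences of at least 2 on the log2 scale were reached by 28 members in GFP (2.43% of tested genes) and by 37 in Tom (3.61%). The median log2 difference of the members was 2.19 in GFP and 2.61 in Tom, against -0.05 and -0.04 over all tested genes, and the median ratio of mean FPKM was 5.93 in GFP and 8.26 in Tom. In each fraction, all 3 libraries lay above all 3 Co libraries for 43 members, which was so for 24.7% of tested genes in GFP and 24.4% in Tom. The largest adjusted p among the called members was 0.00144 in GFP and 0.000963 in Tom, both of Espl1. When each mouse was left out in turn, 42 to 44 members were called higher in GFP, against 7.35% to 18.5% of all tested genes, and 42 to 43 in Tom, against 10% to 23.9%.

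Among the cyclins and Cdk1, all 5 genes rose in both fractions, with median log2 differences of 2.32 in GFP and 3.04 in Tom. Ccnb1, cyclin B1, was measured at 8.46, 6.68 and 8.84 FPKM in Co, 105, 69.8 and 65.7 FPKM in GFP and 112, 104 and 93.2 FPKM in Tom. The lowest DKO* library was thus far above the highest Co library, and the ratio of means was 10.0 in GFP and 12.9 in Tom. Ccnb2 rose by 2.86 in GFP and 3.33 in Tom on the log2 scale. Cdk1, the kinase that both cyclins activate, had 2.93, 3.31 and 4.39 FPKM in Co, 30.7, 19.8 and 16.2 FPKM in GFP and 45.9, 36.1 and 28.2 FPKM in Tom, with log2 differences of 2.32 (SE 0.245) and 3.04 (SE 0.245). Its GFP and Tom libraries overlapped. Cdc25c, the phosphatase that switches Cdk1 on, rose by 2.21 in GFP and 2.73 in Tom, and 2 of its Co libraries were under 1 FPKM, where the added pseudocount holds the log2 difference down.

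The spindle kinases Plk1 and Aurka and the Aurora A activator Tpx2 all rose, with medians of 2.35 in GFP and 2.92 in Tom. Plk1, the Polo-like kinase of centrosomes and kinetochores, had 1.77, 1.75 and 1.92 FPKM in Co, 19.8, 17.0 and 14.7 FPKM in GFP and 17.9, 17.1 and 30.1 FPKM in Tom. Its log2 difference was 2.68 in GFP (adjusted p = 1.68e-07) and 2.97 in Tom (adjusted p = 4.51e-08). Aurka rose by 2.35 in GFP and by 2.92 in Tom. All 4 subunits of the chromosomal passenger complex, which corrects wrong attachments and then moves to the spindle midzone, rose in both fractions, with medians of 2.36 and 2.78. Birc5 had the largest difference of all members in Tom, with 4.95, 3.01 and 5.49 FPKM in Co, 62.6, 39.97 and 26.7 FPKM in GFP and 84.1, 58.8 and 49.4 FPKM in Tom, and log2 differences of 2.95 and 3.56. All DKO* libraries lay above the Co libraries, and mouse 817 was the lowest in each fraction. The kinase subunit Aurkb rose by 2.37 in GFP and 2.79 in Tom, and the scaffold Incenp by 1.78 and 1.92.

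The 4 checkpoint genes rose in both fractions, with medians of 2.18 in GFP and 2.53 in Tom. Bub1, a kinetochore kinase, had 0.787, 1.21 and 1.02 FPKM in Co, 10.9, 8.15 and 8.31 FPKM in GFP and 14.3, 10.2 and 10.6 FPKM in Tom. Bub1b, which encodes the BubR1 inhibitor of the APC/C, rose by 2.39 in GFP and 2.67 in Tom, and Mad2l1, the Mad2 inhibitor of Cdc20, by 1.49 and 1.90. The 7 centromere and kinetochore genes also rose without exception, with medians of 1.88 and 2.45. Cenpa, the histone variant that marks the centromere, had 3.94, 3.52 and 3.62 FPKM in Co, 30.9, 21.7 and 13.2 FPKM in GFP and 34.7, 31.5 and 26.8 FPKM in Tom. Mouse 817 was the lowest of the 3 DKO* mice in both fractions. Cenpe, the kinesin that carries chromosomes to the spindle equator, had under 1 FPKM in all Co libraries (0.737, 0.843 and 0.846), 6.70, 5.16 and 4.63 FPKM in GFP and 8.05, 6.18 and 5.86 FPKM in Tom. On the log2(FPKM + 1) scale these differences were 1.83 and 2.08, and the ratios of mean FPKM were 6.80 and 8.29.

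**Figure D2:**
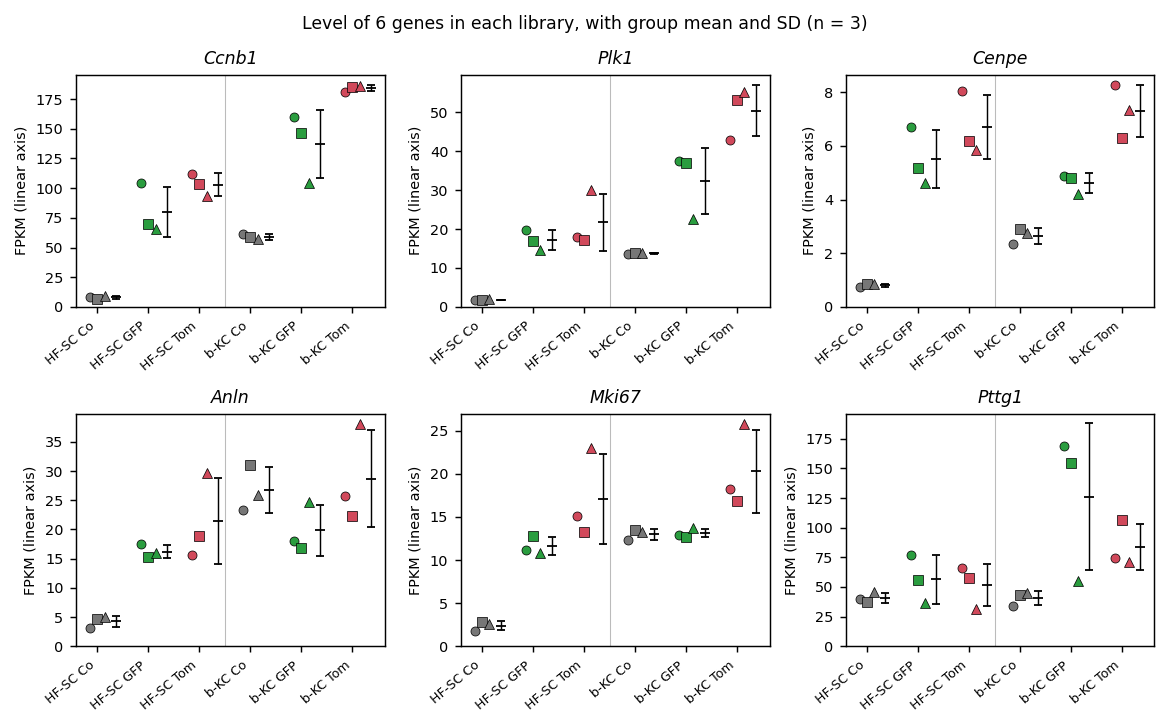
FPKM of Ccnb1, Plk1, Cenpe, Anln, Mki67 and Pttg1 (y axis) in each library of the 6 groups (x axis). Symbols mark the 3 mice of a group and bars the mean ± SD (n = 3). For Ccnb1, Plk1, Cenpe, Anln and Mki67 the HF-SC Co libraries lie below all others, while the HF-SC libraries of Pttg1 overlap.

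The 6 spindle motors and microtubule-binding proteins rose in both fractions, with medians of 2.19 in GFP and 2.68 in Tom. Kif11, the kinesin that pushes the spindle poles apart, had 1.74, 2.599 and 3.01 FPKM in Co, 23.5, 18.8 and 18.1 FPKM in GFP and 25.3, 22.7 and 22.5 FPKM in Tom, a log2 difference of 2.63 in GFP and 2.84 in Tom. Kif2c, which depolymerises microtubules at kinetochores, rose by 2.29 and 2.86. The 6 cytokinesis genes rose as well, with medians of 2.05 and 2.46. Prc1, which bundles the midzone microtubules, had 4.92, 6.49 and 7.95 FPKM in Co, 37.6, 24.8 and 25.9 FPKM in GFP and 43.4, 39.2 and 47.1 FPKM in Tom. Ect2, the exchange factor that activates RhoA at the furrow, rose by 1.82 and 2.15, and Anln, the furrow scaffold anillin, by 1.73 and 2.07. The 5 chromosome structure genes rose with medians of 1.91 and 2.40. Top2a, topoisomerase II, had 5.05, 7.27 and 7.94 FPKM in Co, 37.6, 29.4 and 34.6 FPKM in GFP and 47.0, 40.2 and 45.2 FPKM in Tom. Ncapg, a condensin subunit, rose by 2.46 and 2.59, and Mki67, which coats mitotic chromosomes and is the common proliferation marker Ki67, by 1.91 and 2.40.

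Of the 4 anaphase genes, 3 rose in both fractions. Cdc20 had 6.37, 5.13 and 6.72 FPKM in Co, 75.4, 59.3 and 40.1 FPKM in GFP and 77.1, 64.5 and 77.0 FPKM in Tom, and log2 differences of 3.03 and 3.39. Ube2c rose by 2.80 in GFP and 3.13 in Tom. Espl1, separase, rose least among the called members, with 0.471, 1.33 and 0.860 FPKM in Co, 2.78, 3.68 and 2.87 FPKM in GFP and 2.29, 2.34 and 5.67 FPKM in Tom, and log2 differences of 1.14 (95% interval 0.64 to 1.65) and 1.17 (0.67 to 1.68). Pttg1 was the member not called in either fraction. It was measured at 39.5, 37.6 and 45.3 FPKM in Co, 76.9, 56.3 and 36.1 FPKM in GFP and 66.1, 57.3 and 31.6 FPKM in Tom. In both fractions mice 814 and 815 lay above the Co libraries and mouse 817 lay below them. The log2 difference was 0.40 in GFP (95% interval -0.39 to 1.19, adjusted p = 0.423) and 0.27 in Tom (-0.52 to 1.06, adjusted p = 0.579).

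**Figure D3:**
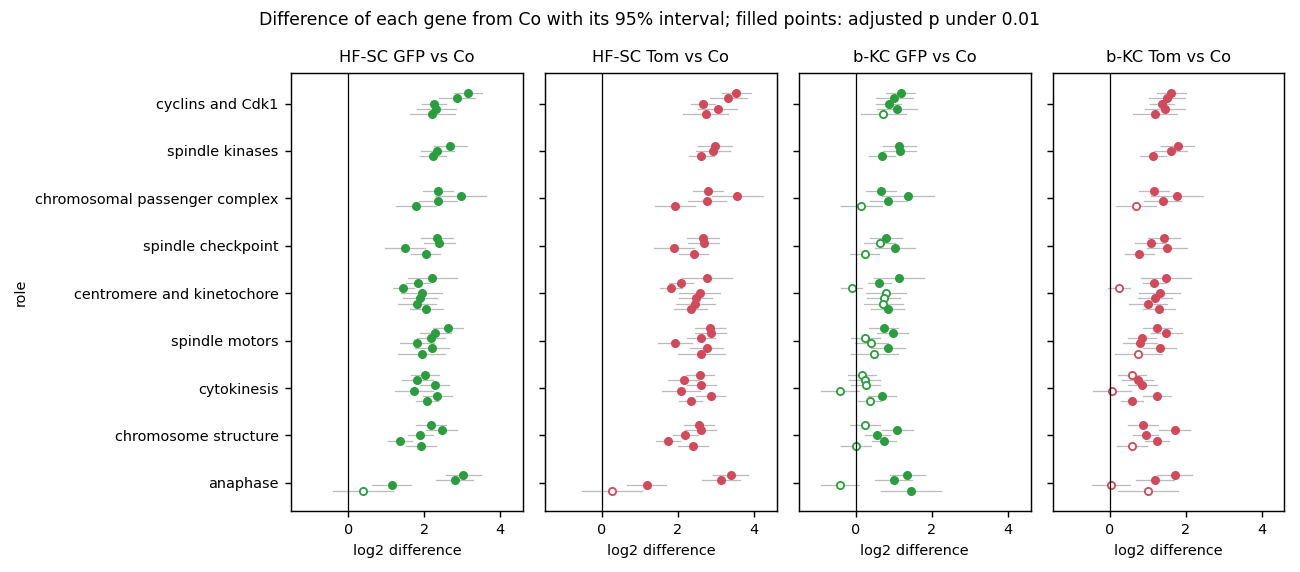
Log2 differences from Co, on the log2(FPKM + 1) scale, of the 44 members by role in the GFP and Tom fractions of HF-SCs and of b-KCs, with 95% intervals from limma; filled points have an adjusted p under 0.01. The filled points number 43, 43, 25 and 36 of 44, and the intervals of Pttg1 cross 0 in both HF-SC fractions.

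The DKO* HF-SCs were then set beside control b-KCs. The mean FPKM of HF-SC GFP was above that of b-KC Co for 27 of 44 members, with a median ratio of 1.05 and a range from 0.570 for Espl1 to 2.32 for Ncapg. In HF-SC Tom this was so for 41 of 44 members, with a median ratio of 1.42. All libraries lay above those of b-KC Co for 9 members in GFP and 25 in Tom, and below them for 4 and 0. Shares over all tested genes were not taken for these counts. These ratios are given as a description, since HF-SCs and b-KCs differ in cell type and genotype together.

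In b-KCs the members rose in fewer cases and by less. Against b-KC Co, 25 of 44 members were higher in b-KC GFP, where 12.5% of all tested genes were higher, and 36 of 44 were higher in b-KC Tom, where 15.4% were. No member was lower, where 12% of tested genes were lower in GFP and 15.3% in Tom. The median log2 difference was 0.73 in GFP and 1.20 in Tom, against -0.03 and -0.02 over all tested genes, and the median ratio of mean FPKM was 1.75 and 2.44. All 3 GFP libraries lay above all 3 Co libraries for 35 members (28% of tested genes) and below them for 1, Espl1 (31%), while all 3 Tom libraries lay above for 41 (31.6%). The count in b-KC GFP moved with the libraries used. It was 9 without mouse 810, 14 without 814, 3 without 815, 7 without 825, 7 without 828 and 30 without 817, with a median log2 difference of 0.64 to 0.82 in these fits. The share of all tested genes called higher moved too, to 8.07%, 6.25%, 3.29%, 6.52%, 5.33% and 23.2% in the same order. Without 817 Anln was called lower. The 3 members still called without 815 were Ccnb1, Cdc20 and Ncapg, whereas the calls of Ccnb2, Cenpa and Kif20a were lost without each mouse but 817. In b-KC Tom 29 to 36 members were called when each mouse was left out, against 6.93% (without 815) to 21.6% (without 817) of all tested genes.

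Most cyclin and spindle kinase genes rose in both b-KC fractions. Of the cyclins and Cdk1, 4 of 5 were called in GFP and 5 of 5 in Tom, with medians of 1.01 and 1.46. Ccnb1 was measured at 61.6, 58.8 and 56.9 FPKM in Co, 160.2, 147 and 105 FPKM in GFP and 181, 185 and 186 FPKM in Tom, with log2 differences of 1.18 (adjusted p = 0.000163) and 1.62 (adjusted p = 6.43e-06). Every GFP library lay above the Co libraries and below the Tom libraries. Ccnb2 rose by 1.01 and 1.51, and Cdk1 by 1.08 and 1.46. All 3 spindle kinase genes were called in both fractions, with medians of 1.14 and 1.61. Plk1, which had the largest log2 difference from Co of the members in b-KC Tom, was at 13.7, 13.8 and 13.8 FPKM in Co, 37.5, 37.0 and 22.7 FPKM in GFP and 42.9, 53.1 and 55.1 FPKM in Tom, with log2 differences of 1.14 and 1.79. Aurka rose by 1.16 and 1.61. Of the anaphase genes 3 of 4 were called in GFP and 2 of 4 in Tom. Cdc20 rose by 1.36 and 1.71, and Ube2c by 0.99 and 1.20.

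Pttg1, which was not called in HF-SCs, had the largest difference of all members in b-KC GFP. It was measured at 34.2, 43.0 and 45.3 FPKM in Co, 169, 155 and 55.2 FPKM in GFP and 74.1, 106 and 70.8 FPKM in Tom. The GFP libraries of mice 814 and 815 were high, and that of mouse 817 lay nearer to Co. The log2 difference was 1.46 in GFP (95% interval 0.67 to 2.25, adjusted p = 0.0063) and 1.01 in Tom (0.21 to 1.80, adjusted p = 0.0376), where it was not called. The call in GFP was lost without the filter on low values, with the groups compared alone and without each mouse but 817. Espl1, whose product securin restrains, had 5.46, 5.47 and 5.45 FPKM in Co, 3.48, 3.55 and 4.65 FPKM in GFP and 5.13, 4.92 and 6.91 FPKM in Tom. It was not called, at -0.41 (-0.91 to 0.10) in GFP and 0.03 (-0.47 to 0.54) in Tom.

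The other groups divided in b-KC GFP. Of the passenger complex, 3 of 4 genes were called in each b-KC fraction, Birc5 at 1.37 and 1.77 and Aurkb at 0.67 and 1.17, while Incenp was not (0.15 and 0.70). In GFP the call of Aurkb was lost under most alternatives (adjusted p = 0.0169 with the random block), and that of Birc5 was lost with the groups compared alone and without each mouse but 817. Of the checkpoint genes, 2 of 4 were called in GFP and 4 of 4 in Tom. Bub1 rose by 0.79 and 1.43, and Bub1b was at 0.63 in GFP (adjusted p = 0.0168) and rose by 1.08 in Tom. The attachment kinase Ttk was at 0.23 in GFP, not called. Of the centromere and kinetochore genes, 3 of 7 were called in GFP and 6 of 7 in Tom. Cenpa rose by 1.14 and 1.49, and Cenpe by 0.62 and 1.18. Of the Ndc80 complex, which binds the microtubule end, Ndc80 (0.79), Nuf2 (0.73) and Spc24 (0.73) were not called in GFP and Spc25 was (0.84). With the mouse as a random block, Ndc80 and Nuf2 were called there, while the calls of Aurkb, Cdca8 and Ncaph were lost. Cenpf had 2.82, 3.93 and 3.67 FPKM in Co, 3.25, 2.89 and 3.24 FPKM in GFP and 4.50, 3.73 and 4.67 FPKM in Tom, so the libraries overlapped, and it was not called (-0.11 and 0.25).

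Cytokinesis genes had the lowest medians of the 9 roles in b-KCs. All 6 have transcripts longer than the members' median of 3271.5 bases, so role and transcript length coincide here. In GFP 1 of 6, the midzone kinesin gene Kif20a, was called (0.68), and in Tom 4 of 6 were, with medians of 0.24 and 0.67. Anln, which had risen in both HF-SC fractions, was measured at 23.4, 31.1 and 25.8 FPKM in Co, 17.95, 16.8 and 24.8 FPKM in GFP and 25.8, 22.3 and 38.1 FPKM in Tom. The Co and DKO* libraries overlapped in both fractions, and the log2 difference was -0.42 (95% interval -0.92 to 0.07) in GFP and 0.07 (-0.43 to 0.57) in Tom. Prc1 was at 0.16 and 0.60 (adjusted p = 0.0106 in Tom), not called. In Tom it was called in limma with the mouse as a random block (adjusted p = 0.0094) and with the groups compared alone (adjusted p = 0.0035). Ect2 (0.23) and the centralspindlin genes Racgap1 (0.26) and Kif23 (0.36) were not called in GFP and rose in Tom, by 0.74, 0.86 and 0.59. The calls of Ect2 and Kif23 in Tom were lost with the groups compared alone and without 4 of the 6 mice each (810, 817 and 828 for both, 814 for Ect2 and 815 for Kif23). Of the spindle motors, 3 of 6 were called in GFP and 5 of 6 in Tom. Kif11 rose by 0.73 and 1.26 and Kif2c by 0.97 and 1.49. The chromokinesin gene Kif4 (0.26), Kif18b (0.41), which shortens astral microtubules, and Nusap1 (0.49) were not called in GFP. Nusap1, a microtubule stabiliser, was not called in Tom either (0.76).

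Of the chromosome structure genes, 3 of 5 were called in b-KC GFP and 4 of 5 in b-KC Tom. The condensin genes Ncapg (1.09 in GFP and 1.71 in Tom) and Smc2 (0.74 and 1.25) rose in both fractions. Mki67 was measured at 12.3, 13.4 and 13.3 FPKM in Co, 13.0, 12.7 and 13.7 FPKM in GFP and 18.2, 16.8 and 25.8 FPKM in Tom. The GFP libraries lay within or beside the range of Co, at a log2 difference of 0.01 (95% interval -0.39 to 0.41) whose sign turned when libraries were rescaled by median ratio and without mouse 810 or 817, and all 3 Tom libraries lay above Co without being called (0.58, adjusted p = 0.0194). With the length trend described below removed, Mki67 was called in Tom, at 1.06 (adjusted p = 5.73e-05 in limma). Top2a was at 0.25 in GFP, not called, and rose by 0.88 in Tom. Cdc25c was the cyclin group's uncalled gene in GFP (0.73).

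In b-KCs, members with longer transcripts had smaller differences from Co. Transcripts of the members ranged from 1349 bases for Spc24 to 11137 bases for Cenpf in the NCBIM37 annotation. Of the 22 members with shorter transcripts, 16 were called in b-KC GFP with a median log2 difference of 0.92, and of the 22 with longer ones 9 were called with a median of 0.45. In b-KC Tom the counts were 20 and 16 and the medians 1.32 and 0.87. In HF-SC GFP the medians were 2.21 and 2.12, and in HF-SC Tom 2.74 and 2.59. Tested genes split at the same length had medians of 0.17 and -0.23 in b-KC GFP and 0.16 and -0.21 in b-KC Tom. In HF-SCs these were 0.003 and -0.09 (GFP) and 0.07 and -0.14 (Tom). The calls of all tested genes were not counted by length. Across the 44 members, Spearman's rho between length and log2 difference was -0.65 in b-KC GFP, -0.53 in b-KC Tom, -0.23 in HF-SC GFP and -0.35 in HF-SC Tom. Across 11740 tested genes with a length it was -0.40, -0.32, -0.10 and -0.19. These correlations are across genes of the same libraries and describe them only. By mouse, rho over the members in b-KC GFP was -0.74 in 814, -0.73 in 815 and -0.25 in 817. Over the tested genes with a length it was -0.44, -0.45 and -0.19 in the same order. With a smooth trend on length removed from each library, an alternative chosen after seeing the data, 24 members were called in b-KC GFP (13% of the 11740 genes), 23 of them also called without it. Aurkb and Cenpa were lost and Bub1b was gained, and the counts were 39 in b-KC Tom (17.4%), where Cenpf, Prc1 and Mki67 were gained, and 43 in each HF-SC fraction (14.3% in GFP and 15.3% in Tom).

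**Figure D4:**
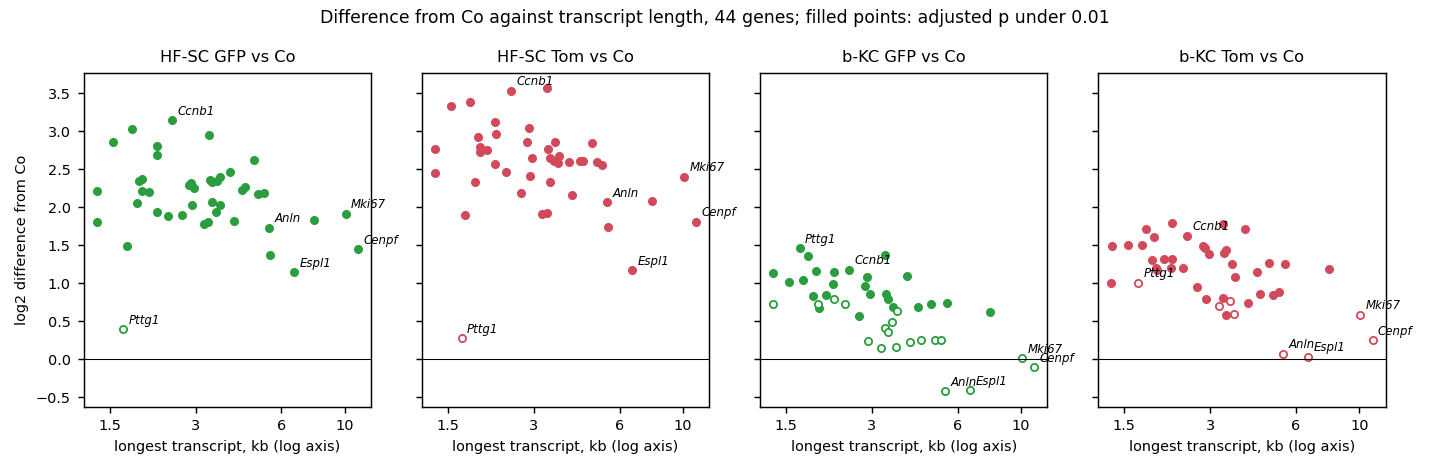
Log2 difference from Co (y axis, log2(FPKM + 1) scale) against the longest annotated transcript (x axis, kilobases, log scale) for the 44 members in the 4 DKO* groups. In b-KC GFP the differences are smaller for longer transcripts (rho -0.65, and -0.40 over all tested genes with a length). In HF-SC GFP they vary less with length (rho -0.23, and -0.10 over those genes).

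The difference between the responses of HF-SCs and b-KCs was tested directly. The GFP response, taken as GFP minus Co, was the larger one in HF-SCs for 31 of 44 members, where 3.32% of tested genes had a larger response there, and the median of the 44 differences was 1.54 against -0.02 over all tested genes. The Tom response was larger for 31 of 44 members, where 5.93% of tested genes were, with a median of 1.45. No member was called with a smaller response in HF-SCs, where 1.89% (GFP) and 2.12% (Tom) of tested genes were. Anln had the largest difference, 2.16 for GFP (SE 0.332, adjusted p = 0.000685) and 1.995 for Tom (SE 0.332, adjusted p = 0.000748). Racgap1 followed in GFP at 2.01 and Prc1 in Tom at 1.99, all of them cytokinesis genes with transcripts over the members' median of 3271.5 bases. For Ccnb1 the difference was 1.97 and 1.91, and for Mki67 1.90 and 1.82. Since b-KC Co had higher levels than HF-SC Co, the responses start from different levels.

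Uncalled for both fractions were Pttg1 (-1.06 for GFP and -0.73 for Tom), Mad2l1 (0.46 and 0.39), Smc2 (0.62 and 0.49), Cenpa (1.07 and 1.27) and Birc5 (1.58 and 1.79). So were Ndc80 (1.14 and 1.25), Spc25 (1.22 and 1.03) and Cdc25c (1.49 and 1.53). Pttg1 alone of these had a smaller response in HF-SCs by its sign. For the GFP fraction alone the test was also missed by Spc24 (1.08), Nuf2 (1.15), Aurka (1.19), Cdk1 (1.24) and Nusap1 (1.44). For the Tom fraction alone it was missed by Ncapg (0.88), Kif18b (1.12), Espl1 (1.14), Plk1 (1.18) and Incenp (1.21). Several of these calls turned once the mouse was a random block, where 39 members were called for GFP (6.53% of all tested genes) and 38 for Tom (9.22%). The block added Birc5, Ndc80, Spc25 and Cdc25c in both fractions, Cdk1, Aurka, Nuf2 and Nusap1 in GFP, and Plk1, Kif18b and Espl1 in Tom. The 31 calls for GFP became 17 without mouse 810, 21 without mouse 814, 11 without mouse 815, 41 without mouse 817, 18 without mouse 825 and 20 without mouse 828, while 0.447% (without 815) to 9.01% (without 817) of all tested genes were called with a larger response and the members' median was 1.48 to 1.602. In the fit without 817, Pttg1 was called with a smaller response. The 31 calls for Tom became 19 without mouse 810, 22 without mouse 814, 9 without mouse 815, 40 without mouse 817, 18 without mouse 825 and 22 without mouse 828, while 1.5% (without 815) to 11.2% (without 817) of all tested genes were called and the median was 1.40 to 1.58.

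Between the fractions of the same mice, nearly all members had lower values in GFP than in Tom, but none passed the test. In HF-SCs 43 of 44 members had a lower mean in GFP, with a median log2 difference of -0.38, and 0 were called by limma at an adjusted p under 0.01, where 4.09% of tested genes were lower and 0.902% higher. At an unadjusted p under 0.05 there were 18 members, and 2545 of the 12751 tested genes. In b-KCs 43 of 44 had a lower mean in GFP, with a median of -0.47, and 0 were called, where 0.125% of tested genes were lower and 0.361% higher, and 29 members had an unadjusted p under 0.05, as did 1470 of the 12751 tested genes. The member with the largest difference was Cdk1 in HF-SCs, at -0.72 (95% interval -1.24 to -0.20, adjusted p = 0.0879), and Plk1 in b-KCs, at -0.65 (-1.09 to -0.21, adjusted p = 0.145). Pttg1 had the opposite sign in both, at 0.13 (-0.67 to 0.92) in HF-SCs and 0.45 (-0.34 to 1.24) in b-KCs. All GFP libraries lay below all Tom libraries for 9 members in HF-SCs (10.2% of tested genes) and for 27 members in b-KCs (7.35% of tested genes). With the mouse as a block, 0 members were called in both cell types. The HF-SC median was -0.54 without mouse 814 and -0.22 without mouse 817, and the b-KC median was -0.31 without mouse 817.

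Within each mouse, the median difference of the members between GFP and Tom was -0.16 in mouse 814, -0.34 in mouse 815 and -0.79 in mouse 817 for HF-SCs, and 28, 40 and 42 of the 44 members were lower in GFP, against 47.0%, 52.7% and 50.3% of all tested genes. For b-KCs it was -0.36 in 814, -0.26 in 815 and -0.82 in 817, with 34, 43 and 44 members lower, against 45.7%, 49.6% and 53.1% of all tested genes. The direction of the median was thus the same in each mouse and cell type, and mouse 817 had the largest difference in both. The members lower in GFP in all 3 mice numbered 27 in HF-SCs, where 21.5% of tested genes were, and 34 in b-KCs, where 19.1% were. In b-KC GFP of mouse 814, Pttg1 was 1.18 above Tom on the log2 scale, the largest value of any member there.

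**Figure D5:**
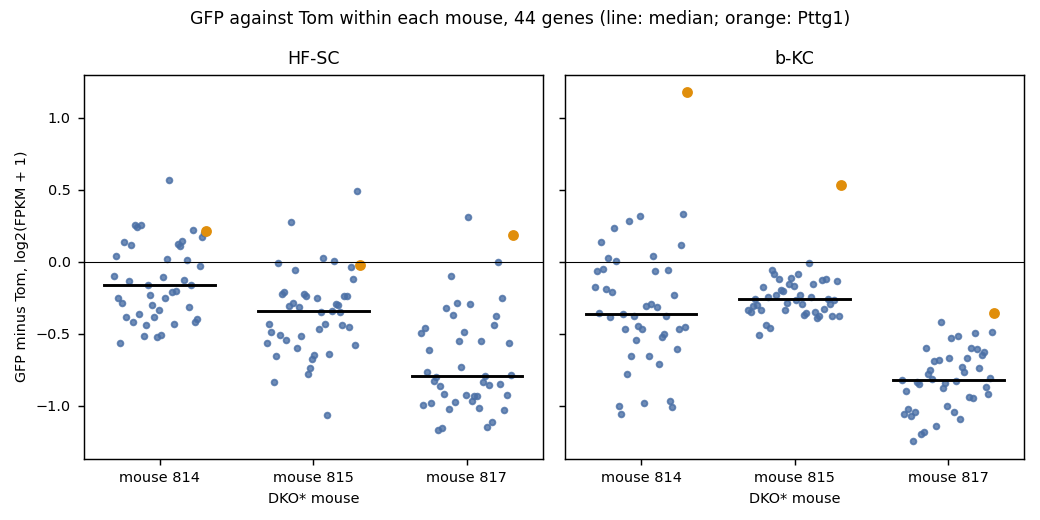
Log2(FPKM + 1) in GFP minus that in Tom (y axis) for the 44 members within each of the 3 DKO* mice, in HF-SCs and in b-KCs; the line is the median and the orange point is Pttg1. The 6 medians lie between -0.82 and -0.16, and those of mouse 817 are the lowest in each cell type.

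HF-SCs and b-KCs of DKO* mice were closer to each other than those of Co mice. In GFP, 18 of 44 members were lower in HF-SCs than in b-KCs, where 15.4% of tested genes were lower, with a median log2 difference of -0.64. In Tom, 22 of 44 were lower, where 15.8% were, with a median of -0.72. No member was higher in HF-SCs, where 13.4% of tested genes were in GFP and 16.6% in Tom. The 18 genes of the GFP fraction included the centromere histone Cenpa (-1.32) and the kinetochore gene Spc24 (-1.22), the anaphase genes Ube2c (-1.28) and Cdc20 (-1.19), and the passenger genes Birc5 (-1.25), Cdca8 (-1.16) and Aurkb (-0.93). They also included Cdk1 (-1.11), Ccnb2 (-0.996), Ccnb1 (-0.78), Ccna2 (-0.62), Aurka (-0.88) and Plk1 (-0.85). The kinesin genes among them were Kif22 (-1.13), Kif2c (-0.88), Kif18b (-0.75), Kif20a (-0.74) and Kif23 (-0.57). At the other end were Cenpe in GFP (0.20, 95% interval -0.11 to 0.51) and Cenpf in Tom (0.16, -0.12 to 0.44), neither called. In Tom the lowest was the passenger gene Cdca8, borealin, with 29.2, 32.5 and 39.6 FPKM in HF-SCs and 68.4, 91.9 and 95.5 FPKM in b-KCs (-1.31, adjusted p = 0.00033), whose libraries did not overlap. Without mouse 815 both counts fell to 0, and the share of all tested genes called lower fell to 0.831% in GFP and 2.05% in Tom, while the members' medians were -0.60 and -0.70. With the groups compared alone, 0 members were lower in GFP (3.26% of all tested genes) and 8 in Tom (2.92%). Rescaling by median ratio gave 15 in GFP (11.2%) and 14 in Tom (9.14%). With the mouse, which the fractions share, as a random block 29 members were lower in GFP (21.9% of all tested genes) and 25 in Tom (23.3%), and with a fixed block in the groups compared alone 28 in GFP (21.8%) and 10 in Tom (4.52%).

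Other genes of the pathway moved with the members, less uniformly. Of 72 further mitosis genes tested, 49 (GFP) and 57 (Tom) were higher in HF-SCs and 29 (GFP) and 52 (Tom) in b-KCs, against 13%, 15.7%, 12.5% and 15.4% of all tested genes, and 1 was lower in each, with median log2 differences of 1.35, 1.71, 0.59 and 1.02. In HF-SCs Psrc1, a spindle-associated protein, was at 1.71, 1.29 and 1.89 FPKM in Co, 18.6 to 22.5 FPKM in GFP and 11.8, 10.2 and 10.8 FPKM in Tom. Its GFP libraries all lay above its Tom libraries, with a log2 difference between them of 0.82, and no other gene of these lists was called higher in that comparison. Tacc3, which stabilises spindle microtubules with Aurora A, rose by 2.61 (GFP) and 2.94 (Tom) in HF-SCs and by 1.02 (GFP) in b-KCs, and it was called higher in b-KC Tom too. Fam83d, which brings casein kinase to the spindle, was lower in HF-SC GFP (-1.27) and HF-SC Tom (-0.98) and higher in b-KC Tom (0.77). Wee1, the kinase that holds Cdk1 inactive, was lower in both b-KC fractions (-1.63 for GFP and -1.39 for Tom), and was at -1.13 and -1.08 in the HF-SC fractions without being called.

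Core subunits of the APC/C and of cohesin were called in 0 to 2 cases per comparison with Co. Of 13 APC/C core genes, 0 were called in HF-SC GFP by limma (5 at an unadjusted p under 0.05, median log2 difference -0.10), 2 were higher in HF-SC Tom, a share close to the 15.7% of all tested genes, and 1 in each b-KC fraction. The lowest in HF-SC GFP was Anapc13 (-0.79) and the highest the interphase activator Fzr1 (0.44). Of 9 cohesin genes, 0 were called in HF-SC GFP (1 at an unadjusted p under 0.05, median -0.06), where they ranged from -0.54 for Pds5b to 0.39 for Wapal, with 0 called in HF-SC Tom (1 unadjusted) and, in b-KCs, 0 in GFP (0 unadjusted) and 2 in Tom, where 15.4% of all tested genes were higher. Among 22 regulators of late cell cycle transcription, 8 were higher in each HF-SC fraction and 2 (GFP) and 5 (Tom) in b-KCs, and 1, 2, 1 and 2 were lower. Of all tested genes 13%, 15.7%, 12.5% and 15.4% were higher and 12.3%, 13.9%, 12% and 15.3% lower, so that the 2 higher in b-KC GFP and the counts lower are under those shares. Mybl2, B-Myb, rose in all 4 groups, by 1.97, 2.27, 1.15 and 1.91. In HF-SCs Foxm1 was at 1.61, 1.67 and 1.72 FPKM in Co, 6.75, 7.43 and 5.29 FPKM in GFP and 5.84, 6.93 and 13.1 FPKM in Tom, and rose by 1.48 and 1.78. In b-KCs it had 11.7, 11.3 and 10.7 FPKM in Co, 9.29, 9.31 and 10.46 FPKM in GFP and 13.97, 16.7 and 21.0 FPKM in Tom and was not called (-0.19 and 0.56). E2f8, a late repressor of replication genes, rose by 1.79 in HF-SC GFP. Rbl2, the DREAM pocket protein, was at -0.61 in HF-SC GFP without being called and was lower in HF-SC Tom (-0.84) and in both b-KC fractions (-1.04 for GFP and -0.89 for Tom), and Lin37, a DREAM core subunit, was lower in HF-SC GFP (-0.55). Of 40 DNA replication genes, 23, 30, 20 and 35 were higher in the same order of groups and none was lower, with medians of 0.88, 1.17, 0.69 and 1.04. In HF-SC GFP these ranged from 0.04 for the polymerase gene Pold1 and 0.08 for Gins4 to 2.10 for Rrm2 and 2.46 for Tk1, enzymes of nucleotide supply. For the larger response of HF-SCs than of b-KCs, 2 of 40 replication genes and 20 of 72 further mitosis genes were called in GFP, against 3.32% of all tested genes, and 0 (10 at an unadjusted p under 0.05) and 17 in Tom, against 5.93%.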

How the data were processed

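The authors deposited FPKM values per gene for 18 libraries. Per the labels and the methods of the study, polyA RNA was amplified with SMART-Seq v4, tagmented with Nextera XT and sequenced on a HiSeq without strand. Reads of 51 bases were checked with FastQC (0.11.0) and aligned to NCBI37/mm9 by TopHat2 (2.0.10) with Bowtie (1.0.0) and SAMtools, allowing 2 mismatches and 20 multihits. FPKM were then made with Cufflinks (2.2.1), whose test on reads was not repeated here. Multihits leave genes with near-identical copies uncertain.

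From these values log2(FPKM + 1) was computed for the 12751 genes that reached 1 FPKM in 3 or more libraries. All 6 groups entered 1 fit in limma (3.58.1, R 4.3.3) with a mean trend, p-values were adjusted by Benjamini and Hochberg within each comparison, and genes with an adjusted p under 0.01 are called. Fold changes on this scale understate the change of low genes. Replicates are separate mice, and the GFP and Tom fractions and both cell types of a mouse are paired by the mouse number in the labels (correlations of their deviations from the group means were 0.084 to 0.70). The main fit has no block, and fits with the mouse as a random or fixed block are alternatives. Other alternatives were a pseudocount of 0.1, no filter, an adjusted p under 0.05, an absolute log2 difference of at least 2, a fit of the groups compared alone, no trend, rescaling by median ratio, leaving out each mouse and a promoter window of 150 bases. A fit with a smooth length trend removed (spline of 4 degrees of freedom, 11740 genes) was added after seeing the data. On simulated data for HF-SC GFP against Co with 12751 genes, 187 of the 200 genes given a log2 change of 2 and 1 of 12551 unchanged genes were called. The simulated noise was normal and independent between libraries, so this does not cover smaller differences or libraries that share a mouse.

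Depth was inferred from the steps between low FPKM values of 7744 genes with 1 transcript, of which 77.4 to 81.9% lay within 0.1 of a whole read. On 1 kb of transcript 3 reads are worth 0.114 to 0.183 FPKM, which covers counting error only, since reads carried no molecular identifiers. The members, gene lists and markers were chosen with earlier results of these data known. Genes named are the leading 2 of each of the 9 role lists, Cdk1, Mki67, the highest and lowest member of each comparison, members whose direction or call differs from most, the 2 highest and 2 lowest of each other list in HF-SC GFP against Co, Foxm1 and Mybl2. Other genes named were chosen after their values were seen. Promoters are RefSeq sequences of GRCm38.p6, matched by symbol. Python (3.11.15) with pandas (2.3.3), numpy (2.4.6), scipy (1.17.1) and matplotlib (3.10.9) did the rest.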

Additional observations from a re-analysis of the deposited data

Results flagged for a closer look

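The response to DKO* differed between the cell types by a test of the difference itself (limma interaction terms, adjusted p under 0.01). The rise from Co to GFP was the larger one in HF-SCs for 31 of the 44 members, where 3.32% of all tested genes were called, by 2.16 on the log2 scale for Anln and 1.97 for Ccnb1. The rise from Co to Tom was larger for 31 members as well, where 5.93% of all tested genes were called, by 1.995 for Anln and 1.91 for Ccnb1. Without mouse 815 the counts were 11 (0.447% of all tested genes) and 9 (1.5%). Both tests use the same Co libraries. Groups of 3 libraries were not tested for single libraries far from the rest.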

How the results depend on the processing

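The 43 calls in each DKO* HF-SC fraction against Co and in HF-SC Co against b-KC Co stayed within 42 to 44 under each alternative but the size threshold, where 28 members (HF-SC GFP), 37 (HF-SC Tom) and 28 (Co) passed an absolute log2 difference of 2. That threshold left 2 members for the GFP response, 0 for the Tom response and 0 in b-KC GFP, b-KC Tom and each of GFP and Tom HF-SC against b-KC. The share of all tested genes passing it was taken only for the HF-SC fractions against Co (2.43% in GFP and 3.61% in Tom). A pseudocount of 0.1 moved the medians to 2.502 (HF-SC GFP), 2.96 (HF-SC Tom), -2.57 (Co), 1.94 (GFP response) and 1.82 (Tom response), as a smaller pseudocount does for low genes. Fitting the groups compared alone gave 15 calls in b-KC GFP (9.16% of all tested genes, against 12.5%), 0 for GFP HF-SC against b-KC (3.26%, against 15.4%) and 8 for Tom (2.92%, against 15.8%). For GFP HF-SC against b-KC, an adjusted p under 0.05 gave 29, where the share of all tested genes was not taken. The random replicate block (within-mouse correlation 0.274) gave 29 (21.9% of all tested genes) and the fixed replicate block 28 (21.8%). For Tom HF-SC against b-KC the fixed replicate block gave 10 (4.52% of all tested genes, against 15.8%). Rescaling gave 14 (9.14%) with a median of -0.57. The blocks moved no other count of members by over 1.5 times. Leaving out each mouse gave 3 to 30 calls higher and 0 to 1 lower in b-KC GFP, 11 to 41 higher and 0 to 1 lower for the GFP response, 9 to 40 for the Tom response, 0 to 23 for GFP HF-SC against b-KC and 0 to 21 for Tom. Of all tested genes, 3.29% to 23.2% were then higher in b-KC GFP, 0.447% to 9.01% for the GFP response and 1.5% to 11.2% for the Tom response. Called lower were 0.831% to 20.8% for GFP HF-SC against b-KC and 2.05% to 19.5% for Tom. Mki67 in b-KC GFP, at 0.01, turned to -0.0060 when rescaled and ranged from -0.026 (without mouse 810) to 0.035 (without mouse 825). The 150-base window left 3 promoters with TTTAAA. Beyond fewer samples or genes, the cause was not tested. The 3 mice a group and the use of FPKM in place of counts limit the precision of small differences, such as those between GFP and Tom.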
